A study of Mus musculus with 18 samples.

Results

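The collagen genes were the 44 protein-coding genes whose symbol is Col, a number, the letter a and a number. They were picked by symbol alone from 49585 gene rows, of which 21734 matched a protein-coding gene, and each was followed through 18 RNA-Seq libraries in 6 groups of 3. All 18 libraries are labelled as strain Kaede, transgenic for a fluorescent protein that turns from green to red under violet light, so that cells present in an exposed tissue can be recognised after they have left it. In the inflamed groups, Kaede recipients were given CD45.1 donor CD4+ T cells of the ovalbumin-specific OT-II line, polarised in vitro to Th1, immunized with ovalbumin in complete Freund's adjuvant, and challenged with 100 µg heat-aggregated ovalbumin (HAO) in the footpad (joint) or the ear pinna (skin). The inflamed tissue was photoconverted and viable CD45+ Kaede red leukocytes were sorted a day later, from the tissue itself (joint nonmigrated and skin nonmigrated) or from its draining lymph node (joint migrated and skin migrated). Another pair of groups was steady state, titled as PBS for the joint-draining node and as naive for the skin-draining node, whose CD45+ cells the labels also describe as having migrated there. The titles of the joint steady-state libraries carry the letters KG, which the labels do not explain. Each inflamed library was sorted from pooled animals, so that a replicate is a pool, and ages are not in the labels.

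Collagens are secreted or membrane-bound proteins built from 3 chains wound into a triple helix. Fibril-forming collagens give tissues tensile strength, type IV forms the sheet of basement membranes, type VI forms beaded filaments around cells, and FACITs decorate the surface of fibrils. Fibroblasts, chondrocytes, keratinocytes and endothelial cells are the textbook sources, and leukocytes are better known for binding and taking up collagen than for making it. The tissues here were digested with collagenase D at 2.64 mg/mL for 25 min before the sort.

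Sequence just upstream of the start site is given for the members that led the collagen RNA of migrated cells (Col27a1) and of nonmigrated cells (Col1a2 and Col3a1, since Col1a1 has no entry in the table used). Each is the 150 bases before the RefSeq start on the plus strand of GRCm38, which is mm10, written 5′ to 3′. Capitals mark matches on either strand to the TATA box (TATAAA), the CCAAT box (CCAAT), the GC box (GGGCGG) or the AP-1 motif (TGANTCA), where N is any base. Col27a1 lies at chr4:63215262-63215411, Col1a2 at chr6:4505468-4505617 and Col3a1 at chr1:45311388-45311537. The GENCODE intervals of Col27a1 and Col1a2 begin before these stretches, at chr4:63214004 and chr6:4504814. For these genes the printed bases are therefore upstream of the RefSeq start only and lie inside the GENCODE interval.
Col27a1: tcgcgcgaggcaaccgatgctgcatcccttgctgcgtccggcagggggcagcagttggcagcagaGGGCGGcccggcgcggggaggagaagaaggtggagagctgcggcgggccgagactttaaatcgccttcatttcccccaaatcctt
Col1a2: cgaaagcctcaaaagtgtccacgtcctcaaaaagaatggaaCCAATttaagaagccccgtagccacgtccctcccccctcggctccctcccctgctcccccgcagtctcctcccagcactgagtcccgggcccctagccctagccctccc
Col3a1: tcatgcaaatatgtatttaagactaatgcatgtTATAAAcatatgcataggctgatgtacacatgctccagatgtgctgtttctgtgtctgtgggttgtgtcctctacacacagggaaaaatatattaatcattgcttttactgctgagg
The Col27a1 stretch held a GC box at -85 relative to the start, the Col1a2 stretch a CCAAT box at -109, and the Col3a1 stretch a TATA box at -117. Over the 250 upstream bases, 38 windows of 35 collagen genes were available beside 32851 windows of all genes. GC boxes were in 22 of the 38 collagen windows (57.9%) and in 32.7% of all windows, and CCAAT boxes were in 13 (34.2%) and in 33.8%. TATA boxes were in 5 (13.2%) against 12.4% and AP-1 motifs in 1 (2.63%) against 6.75%. A match is only a match of letters, and no protein binding was measured.

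Col4a1 and Col4a2, the usual pair of chains of type IV collagen, stand head to head on mouse chromosome 8. Their annotated first exons overlap in 22 bases at chr8:11312805-11312826, shown on the plus strand, and reads within them could not be assigned to a strand with the information given.
Shared bases: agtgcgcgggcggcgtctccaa

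Library totals ran from 19239531 to 43814403 counts, and every inflamed skin library was smaller than every inflamed joint library, so that depth and site cannot be told apart in comparisons between sites. A gene was read as detected above 3 counts in a library, a floor of 0.0616 to 0.180 CPM, the count scaled to a common library size by edgeR's TMM. All 5 leukocyte markers were above the floor in every group, with a summed level of 4538 to 6570 CPM. In the nonmigrated groups, replicate 3 stood apart from replicates 1 and 2 at both sites in its collagen levels, and counts without it are given where they differ.

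Of the 44 genes, 37 were above the floor in at least 1 joint nonmigrated library, 33 in joint migrated, 28 in the joint steady-state node, 35 in skin nonmigrated, 22 in skin migrated and 26 in the skin steady-state node. The filter on low counts kept 29 members in the fit of the 12 inflamed libraries and 20 in the fit of the 12 lymph node libraries. Another 14 passed neither filter, with no count above 20 in any library: the basement membrane chains Col4a3 and Col4a6, the type VI chains Col6a4, Col6a5 and Col6a6, the cartilage genes Col9a1, Col9a2 and Col10a1, and Col13a1, Col19a1, Col24a1, Col25a1, Col26a1 and Col28a1. Col4a5 passed only in the node libraries. Col9a1, which makes a cartilage FACIT chain, had 4, 12 and 20 counts in the skin nonmigrated libraries and at most 1 count in every other library. A member that passed a filter through the group in which it is high had to differ between groups, and the counts below cover tested members only.

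**Figure D1:**
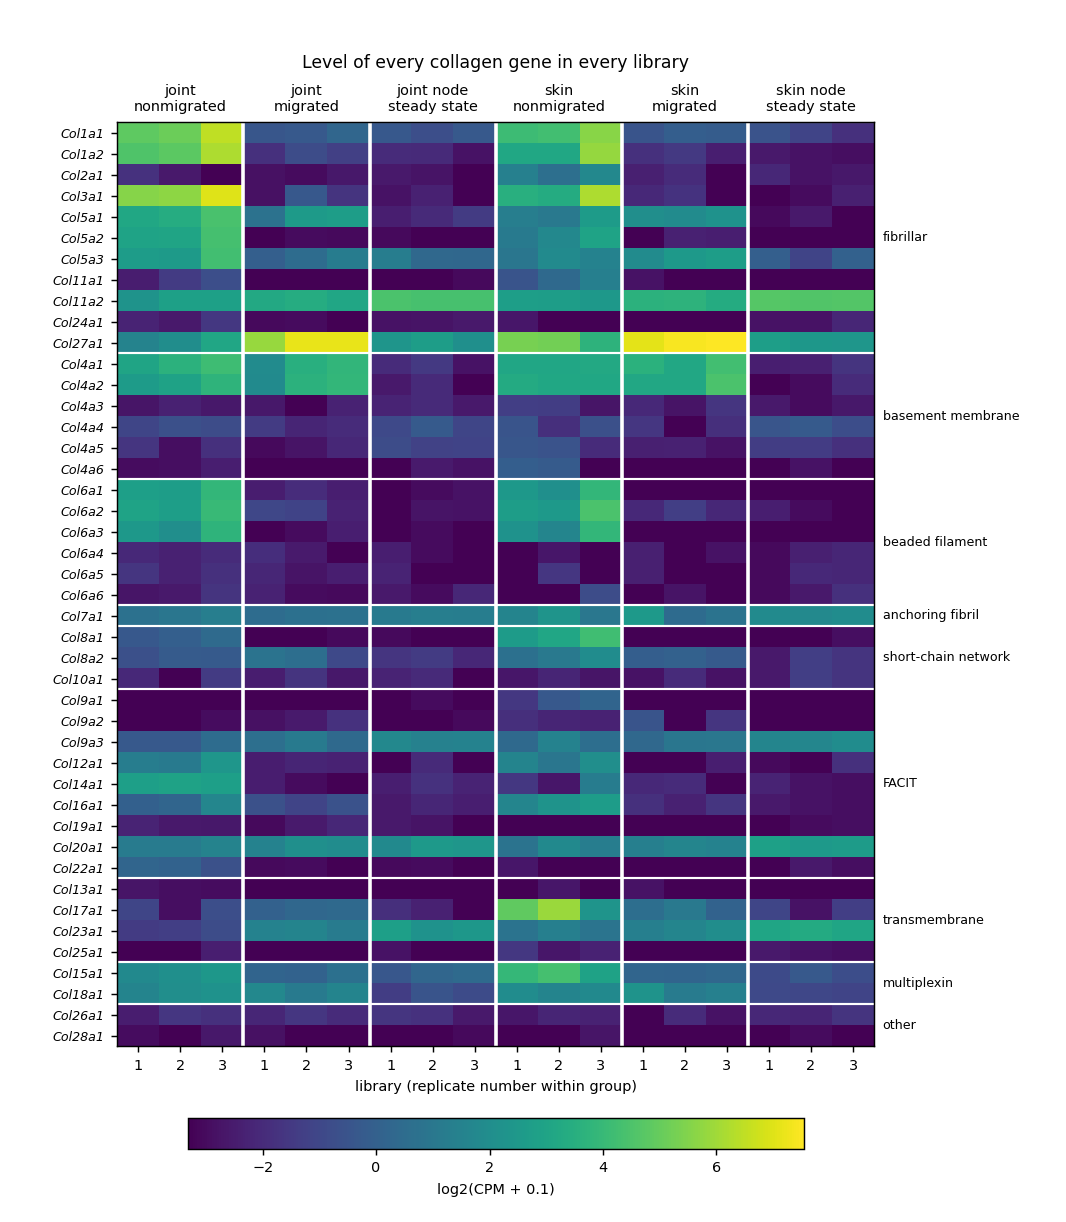
Level of each of the 44 collagen genes (rows, grouped by class) in each of the 18 libraries (columns, 3 per group), as log2(CPM + 0.1) with the colour scale below. Col1a1, Col1a2, Col3a1, Col5a2, Col6a1, Col6a2 and Col6a3 are bright in both nonmigrated groups and dark in all node groups, while Col27a1 is brightest in both migrated groups.

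The summed level of all collagen genes was of the same order in migrated and nonmigrated cells, but different genes carried it. The sum was 190, 216 and 483 CPM in the joint nonmigrated libraries and 96.3, 205 and 210 CPM in the joint migrated libraries, and these ranges overlapped. In skin it was 202, 240 and 350 CPM in nonmigrated cells and 201, 230 and 266 CPM in migrated cells, which also overlapped. The steady-state nodes held less, 45.9 to 49.9 CPM for the joint and 55.8 to 58.9 CPM for the skin, below every inflamed library.

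Col1a1, Col1a2 and Col3a1, the chains of the interstitial fibril collagens I and III, made up 52.4%, 53.0% and 61.0% of collagen counts in the joint nonmigrated libraries. In joint migrated libraries these 3 genes held 0.787 to 0.922%. Col27a1, a fibrillar collagen known from cartilage, held 1.49 to 1.83% of collagen counts in joint nonmigrated cells and 61.0 to 69.8% in joint migrated cells. The skin showed the same exchange with more spread among the nonmigrated libraries. There the type I and III genes held 18.8%, 15.8% and 51.2% of collagen counts in nonmigrated replicates 1 to 3 and 0.334 to 0.564% in migrated cells. Col27a1 held 19.7%, 15.7% and 3.73% in skin nonmigrated replicates 1 to 3, and 68.1%, 74.7% and 70.0% in the migrated libraries. Col15a1 and Col17a1, a vessel-associated basement membrane zone collagen and the hemidesmosome collagen of keratinocytes, together held 22.1% and 33.2% of collagen counts in skin nonmigrated replicates 1 and 2 but 3.55% in replicate 3.

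The steady-state nodes had yet another make-up. Col7a1, Col9a3, Col11a2, Col20a1 and Col23a1 held 72.8 to 79.0% of collagen counts in the joint-draining node and 80.7 to 82.2% in the skin-draining node, and Col27a1 held 8.99 to 13.01% and 9.10 to 11.3%. Of the Col9a3 exon bases, 6.07% are shared with Tcfl5 on the opposite strand, and reads there cannot be told apart because the sources used here do not say whether the library kit marks strand.

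**Figure D2:**
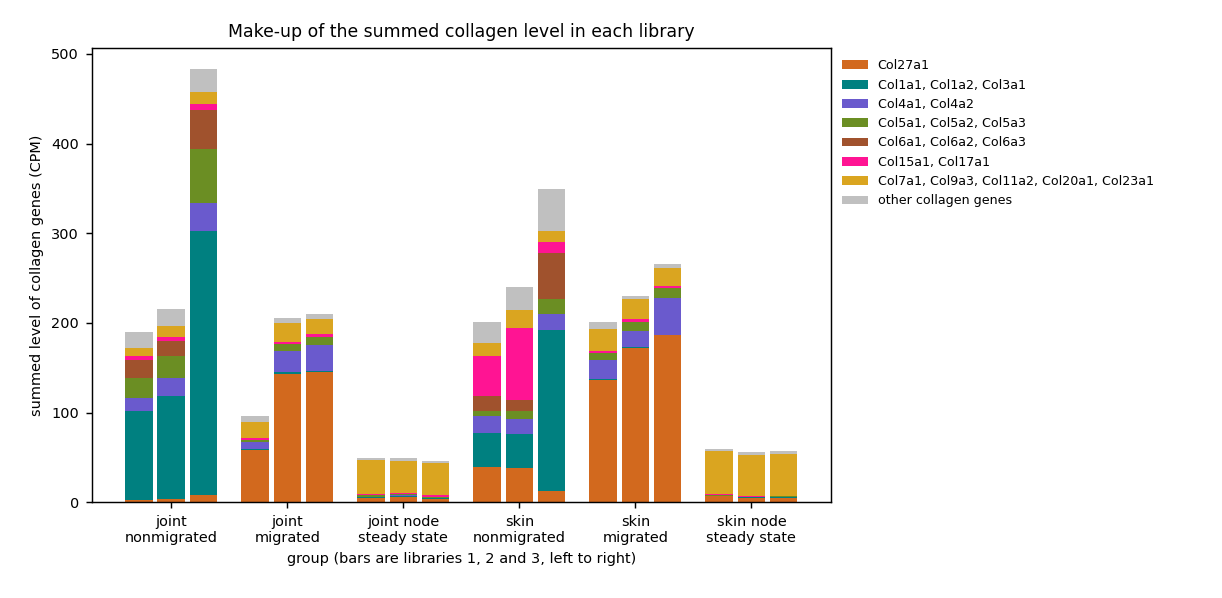
Summed collagen level in CPM (bar height, starting at 0) in each of the 18 libraries, split into 8 sets of collagen genes by colour. The Col27a1 segment fills most of each migrated bar, the Col1a1, Col1a2 and Col3a1 segment most of each joint nonmigrated bar, and the steady-state bars are short, between 45.9 and 58.9 CPM.

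The shares of collagen counts above are not corrected for gene length, and Col27a1 has 13022 exon bases against 6563 for Col1a1. Levels of single genes were therefore also ranked per kilobase of exon. In joint nonmigrated cells Col1a1 led with a mean of 7.80 CPM per kb (4.39 to 13.8) and Col3a1 followed at 7.78, with overlapping ranges. In joint migrated cells Col27a1 led with 8.89 CPM per kb (4.51 to 11.2), and the next gene, Col4a2, reached 1.54 (0.543 to 2.18), so that their libraries did not overlap. In skin migrated cells Col27a1 again led with 12.7 CPM per kb (10.5 to 14.3), before Col4a2 at 2.01. In skin nonmigrated cells Col17a1 had the highest mean, 5.21 CPM per kb, but its libraries spanned 0.804 to 9.93 and the order among Col17a1, Col1a1 (4.34), Col3a1 (3.24), Col27a1 (2.32) and Col15a1 (2.24) was not resolved beyond that spread. Col11a2, a chain of the minor fibrillar collagen XI, led both steady-state nodes at 3.11 (3.03 to 3.24) and 3.57 (3.46 to 3.70) CPM per kb, and Col23a1, a transmembrane collagen, followed at 0.972 and 1.55.

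The main comparison asked which genes differ between cells that left the inflamed joint and those that stayed. Calls needed an absolute log2 fold change above 1 together with an adjusted p below 0.001, from edgeR's quasi-likelihood test with Benjamini-Hochberg adjustment over every gene tested. In joint migrated cells 13 of the 29 tested collagen genes were lower and 2 were higher than in joint nonmigrated cells, where 12.6% of all 16777 genes tested were called lower and 8.8% higher. The median log2 fold change was -1.75 over the tested collagen genes and 0.02 over all genes. Of the 29, 10 passed the filter here but not in the fit of the lymph node libraries. These were Col2a1, Col3a1, Col5a2, Col6a1, Col6a3, Col8a1, Col11a1, Col12a1, Col14a1 and Col22a1. They entered the test through nonmigrated cells of the joint, the skin or both, so a lower value in migrated cells was largely set by the filter. All of them but Col2a1 and Col11a1 were among the 13 genes called lower. Without joint migrated replicate 2 the 15 calls fell to 9, the lowest number when any single joint library was left out. In these sorted bulk populations, fewer cells that make a transcript and less of it per cell cannot be told apart.

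Among fibrillar genes, 5 of 10 tested were lower and 1 was higher in the joint, beside 12.6% and 8.8% of all genes tested. Of the lower ones, Col3a1 and Col5a2 had entered the test through nonmigrated cells. Col1a1 (ENSMUSG00000001506, chr11:94936224-94953042, plus strand), the major chain of type I collagen, stood at 28.8, 34.0 and 90.8 CPM in joint nonmigrated libraries and at 0.657, 0.724 and 1.11 CPM in migrated libraries. All nonmigrated libraries were above all migrated ones, a log2 fold change of -5.94 (SE 0.580, adjusted p = 7.48e-06). Col1a2, which encodes its partner chain, read 23.3, 28.1 and 74.0 CPM against 0.185, 0.467 and 0.322 CPM (log2 fold change -7.01, SE 0.899, adjusted p = 5.41e-05). Col3a1, the chain of type III collagen found with type I in extensible tissues, read 47.2, 52.2 and 129.6 CPM against 0.0411, 0.701 and 0.214 CPM (log2 fold change -7.93, SE 1.06, adjusted p = 7.32e-05). Replicate 3 was the highest nonmigrated library for each of these genes, and no library overlapped with the other group. Col5a2, a type V chain that regulates fibril diameter, read 7.79, 8.14 and 19.9 CPM in nonmigrated cells and had 0, 1 and 1 counts in migrated cells, at least 170.6-fold lower against the floor of 3 counts per library (adjusted p = 5.5e-06).

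The type I chains kept a near constant proportion across the joint nonmigrated libraries. The ratio of Col1a2 to Col1a1 counts was 0.809, 0.827 and 0.816 there, although replicate 3 had far higher levels of both. The ratio of Col3a1 to Col1a1 was 1.64, 1.53 and 1.43. In skin nonmigrated cells the same ratios were 0.498, 0.468 and 1.15 for Col1a2 and 0.652, 0.539 and 1.51 for Col3a1, so that replicate 3 had another proportion of fibril chains than replicates 1 and 2 and not only more RNA of them.

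The other type V chains behaved differently from Col5a2. Col5a1, found with Col5a2 in the same trimer, read 8.70, 10.6 and 21.2 CPM in joint nonmigrated cells and 1.62, 6.03 and 6.56 CPM in migrated cells, without overlap, and missed the threshold (log2 fold change -1.51, adjusted p = 0.0313). Col5a3, the remaining type V chain, read 6.35, 5.98 and 19.2 CPM against 0.883, 1.33 and 2.29 CPM and was called lower (log2 fold change -2.80, SE 0.515, adjusted p = 0.00071), a call that was lost without joint nonmigrated replicate 3 or without any migrated library, with log2 fold changes of -3.22 to -2.04 over all settings.

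Col27a1 (ENSMUSG00000045672, chr4:63214004-63334991, plus strand) was the fibrillar gene that rose. The bases printed above for it precede its RefSeq start and lie inside this GENCODE interval. Col27a1 read 2.82, 3.95 and 8.48 CPM in joint nonmigrated libraries and 58.8, 143.2 and 145.3 CPM in joint migrated libraries. Every migrated library was above every nonmigrated library, and migrated replicate 1 was the lowest of its group. The log2 fold change was 4.51 (SE 0.543, adjusted p = 3.34e-05), or 22.8-fold, and ranged from 4.21 to 5.10 over all settings run. Col11a2, the other fibrillar gene with a positive value, read 4.62, 7.11 and 7.03 CPM against 9.36, 10.6 and 8.42 CPM and was not called (log2 fold change 0.60, adjusted p = 0.0232).

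**Figure D3:**
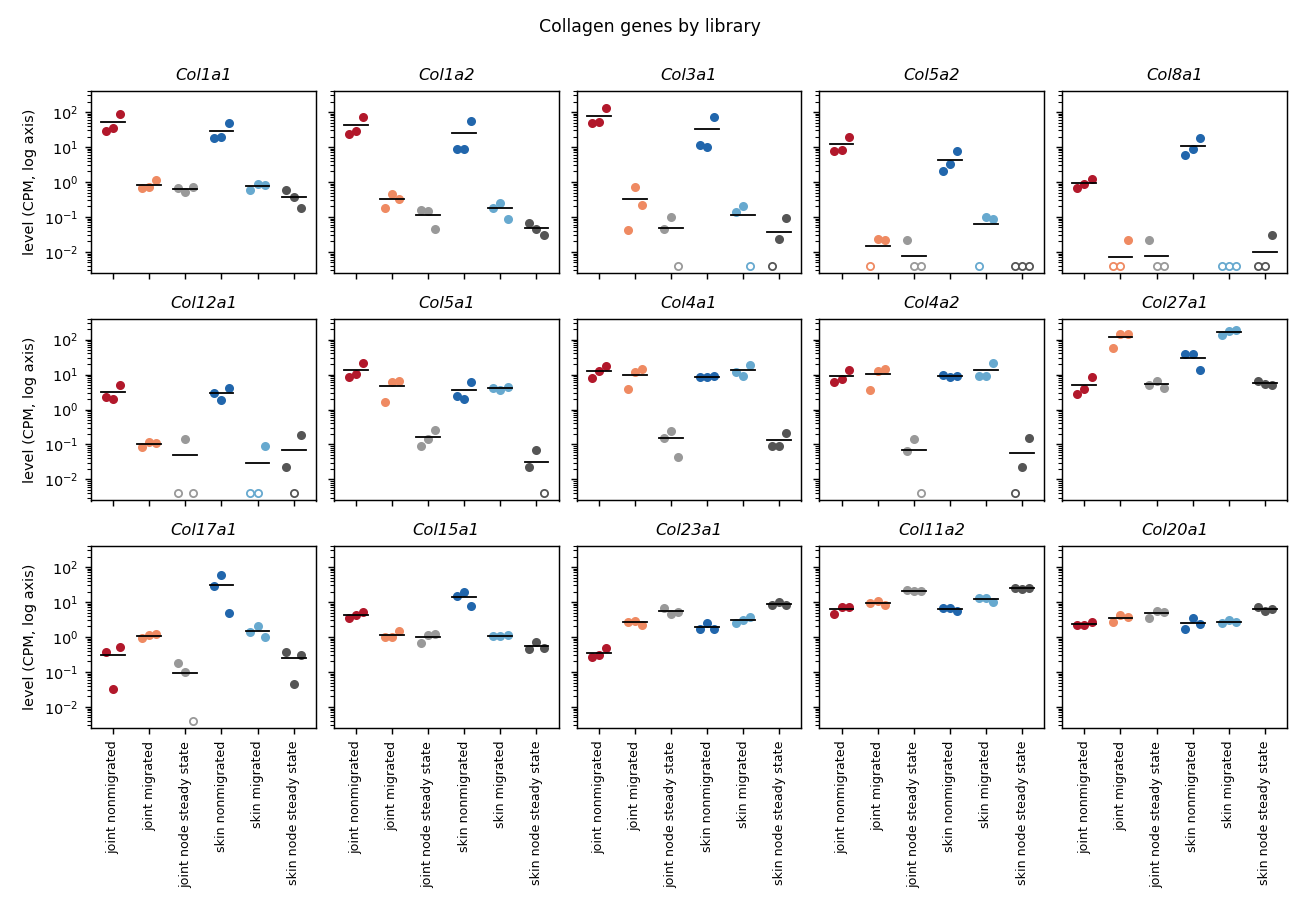
Level in CPM (log axis) of 15 collagen genes in every library, by group, with the mean of 3 libraries as a bar; open points at the bottom mark libraries with 0 counts, drawn at 0.004 CPM. Col1a1, Col1a2 and Col3a1 lie at 8.76 CPM or more in every nonmigrated library and at 1.11 CPM or less in every migrated library, and Col27a1 lies at 58.8 CPM or more in every migrated library.

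All 3 tested chains of beaded filaments were lower in joint migrated cells, beside 12.6% of all genes tested. Of these, Col6a1 and Col6a3 had entered the test through nonmigrated cells. Col6a1, Col6a2 and Col6a3 encode the chains of type VI collagen and are needed together for its assembly. Col6a2 read 7.77, 6.71 and 15.7 CPM in nonmigrated cells and 0.390, 0.350 and 0.107 CPM in migrated cells (log2 fold change -5.14, SE 0.666, adjusted p = 5.91e-05). Col6a1 read 7.00, 6.44 and 14.6 CPM against 0.0821, 0.164 and 0.0857 CPM (log2 fold change -6.36, SE 0.671, adjusted p = 3.54e-05). Col6a3 read 5.44, 4.02 and 13.2 CPM against 0, 1 and 4 counts (log2 fold change -7.55, SE 1.00, adjusted p = 0.000161), and lost its call without joint migrated replicate 2. The 3 genes had their highest value in nonmigrated replicate 3, and the ratio of Col6a1 to Col6a2 counts stayed at 0.901, 0.960 and 0.925 across the nonmigrated libraries.

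Basement membrane chains gave no call: 0 of 3 tested were called by edgeR in either direction. Col4a1 read 7.93, 12.4 and 18.01 CPM in joint nonmigrated libraries and 3.74, 11.5 and 14.2 CPM in migrated libraries. Col4a2 read 6.04, 7.61 and 13.1 CPM against 3.59, 12.5 and 14.5 CPM. The groups overlapped for both genes. The 95% interval of the log2 fold change, which is approximate and somewhat too narrow, was -1.24 to 0.47 for Col4a1 and -0.77 to 1.15 for Col4a2. Only changes well beyond those bounds lie outside what these libraries gave. Col4a4, a chain known from kidney and other specialised basement membranes, was low in all joint libraries of both groups. It read 0.383, 0.531 and 0.481 CPM in nonmigrated and 0.267, 0.117 and 0.150 CPM in migrated libraries, without overlap. Its unadjusted p was under 0.05 in edgeR, but it was not called.

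Of the FACIT genes, 3 of 6 tested were lower in the joint, beside 12.6% of all genes tested. All of these had entered the test through nonmigrated cells, so their fall was largely set by the filter. Col12a1, a fibril-associated collagen of dense connective tissue, read 2.33, 2.06 and 5.05 CPM in nonmigrated cells and 0.0821, 0.117 and 0.107 CPM in migrated cells (log2 fold change -4.90, SE 0.583, adjusted p = 3.07e-05). Col14a1, a related fibril-surface collagen, read 6.95, 7.61 and 6.85 CPM against 4, 1 and 0 counts, and unlike the chains above it was not raised in nonmigrated replicate 3 (log2 fold change -7.47, SE 1.12, adjusted p = 0.000171). Its call was lost without joint migrated replicate 2 or 3. Col22a1, known from tissue junctions such as muscle and tendon, read 1.07, 0.963 and 0.541 CPM against 1, 1 and 0 counts, at least 12.2-fold lower (adjusted p = 0.000169), a call that was lost without any migrated library or without nonmigrated replicate 1 or 2. No library of these 3 genes overlapped between the groups. Col16a1 had a negative value without a call (log2 fold change -1.75, adjusted p = 0.0092), and Col20a1 and Col9a3 had positive values that missed the threshold (adjusted p = 0.101 and 0.116).

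The remaining classes had single members that moved. Col8a1, a short-chain collagen of vessel walls and corneal membrane, read 0.684, 0.864 and 1.23 CPM in joint nonmigrated cells and 0, 0 and 1 counts in migrated cells, at least 13.2-fold lower (adjusted p = 0.000149), and lost its call without migrated replicate 2 or 3. Col15a1 read 3.47, 4.15 and 5.35 CPM against 1.03, 0.981 and 1.50 CPM without overlap (log2 fold change -1.88, SE 0.340, adjusted p = 0.000639), and its call did not hold without any single library of the pair, with values of -2.07 to -1.70. Col18a1, the related multiplexin whose fragment is endostatin, read 2.90, 4.09 and 4.57 CPM against 3.22, 2.08 and 2.89 CPM and was not called (adjusted p = 0.202). Col23a1 rose, from 0.274, 0.299 and 0.481 CPM to 2.75, 2.90 and 2.19 CPM, a log2 fold change of 2.88 (SE 0.326, adjusted p = 2.1e-05), or 7.37-fold, with no overlap.

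In skin, 13 of 29 tested collagen genes were lower in migrated than in nonmigrated cells and 0 were higher, where 12.4% of all genes tested were called lower and 8.49% higher. DESeq2 called 15 of the 29 in either direction, and 19 of the 29 had an unadjusted p under 0.05 in edgeR. The median log2 fold change was -3.17 over the tested collagen genes, or -2.89 with genes at the floor set to their bound, and 0.01 over all genes. As in the joint, 10 of the 29 had entered the test through nonmigrated cells, which bears on this count and median. With only the skin libraries in the fit 6 genes were called. Of the 13 lower genes at each site, 10 were called lower at both: Col1a1, Col1a2, Col3a1, Col5a2, Col6a1, Col6a2, Col6a3, Col8a1, Col12a1 and Col15a1. Most of these, namely Col3a1, Col5a2, Col6a1, Col6a3, Col8a1 and Col12a1, had entered through nonmigrated cells, as had Col2a1 among the other skin calls. Their fall at both sites was thus largely set by the filter, and the matching overlap over all genes is not given here.

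Col1a1 read 17.6, 18.9 and 48.9 CPM in skin nonmigrated cells and 0.605, 0.849 and 0.798 CPM in migrated cells (log2 fold change -5.24, SE 0.599, adjusted p = 2.32e-05), or 37.8-fold lower. Col1a2 read 8.76, 8.83 and 56.2 CPM against 0.186, 0.250 and 0.0886 CPM (log2 fold change -7.13, SE 1.02, adjusted p = 0.00012), and its call was lost without migrated replicate 3. Col3a1 read 11.5, 10.2 and 73.9 CPM against 0.140, 0.200 and 0 CPM (log2 fold change -8.13, SE 1.25, adjusted p = 0.000205), a call lost without any single migrated library, with values of -8.78 to -6.57 over all settings. No library of these genes overlapped between the groups, and nonmigrated replicate 3 was the highest for each. Col5a2 read 2.04, 3.21 and 7.69 CPM against 0, 2 and 2 counts, at least 28.8-fold lower (adjusted p = 8.65e-05).

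The type VI chains fell in skin as in the joint. Col6a1 read 5.52, 4.15 and 14.7 CPM in nonmigrated cells and 0 counts in all 3 migrated libraries, at least 54.1-fold lower (adjusted p = 3.41e-05). Col6a3 read 4.56, 2.98 and 14.3 CPM and also had 0 counts in the 3 migrated libraries, at least 48.7-fold lower (adjusted p = 0.000224). Col6a2, whose migrated libraries kept 0.140, 0.300 and 0.133 CPM, had read 6.42, 5.67 and 22.0 CPM (log2 fold change -5.89, SE 0.751, adjusted p = 5.21e-05).

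Col8a1 had the smallest adjusted p among the skin genes that reached 0 in migrated cells. It read 6.06, 8.53 and 18.6 CPM in skin nonmigrated cells and 0 counts in all 3 migrated libraries, at least 73.8-fold lower (adjusted p = 1.07e-05). Col15a1 read 15.2, 20.0 and 7.59 CPM against 1.07, 1.05 and 1.15 CPM (log2 fold change -3.71, SE 0.371, adjusted p = 9e-06), and here nonmigrated replicate 3 was the lowest of its group. Col12a1 read 2.88, 1.81 and 4.00 CPM against 0, 0 and 2 counts, at least 19.3-fold lower (adjusted p = 3.35e-05).

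The 3 genes called lower in skin and not in the joint were Col2a1, Col16a1 and Col17a1. Col17a1 (ENSMUSG00000025064, chr19:47646344-47692094, minus strand) read 29.4, 59.7 and 4.83 CPM in skin nonmigrated cells and 1.40, 2.00 and 0.975 CPM in migrated cells (log2 fold change -4.44, SE 0.796, adjusted p = 0.000599). Its call was lost without any migrated library and without nonmigrated replicate 1 or 2, with values of -4.95 to -3.56. Col2a1, the main collagen of cartilage, read 2.58, 1.46 and 3.22 CPM against 2, 3 and 0 counts, at least 16.2-fold lower (adjusted p = 0.000422), a call lost without any migrated library and without nonmigrated replicate 1 or 3. Col16a1, a FACIT, read 3.00, 4.73 and 6.29 CPM against 0.186, 0.0999 and 0.222 CPM (log2 fold change -4.75, SE 0.594, adjusted p = 4.58e-05).

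Col27a1 in skin read 39.8, 37.8 and 13.04 CPM in nonmigrated cells and 136.6, 171.9 and 186.0 CPM in migrated cells. The groups did not overlap, but the gene missed the threshold (log2 fold change 2.45, SE 0.491, adjusted p = 0.00128), with values of 2.08 to 2.70 over all settings. It passed the threshold without replicate 3 of both nonmigrated groups, in DESeq2, without the filter on low counts and in a fit of all 18 libraries. Col4a1 (8.58, 8.42 and 9.35 CPM against 12.01, 9.14 and 18.7 CPM) and Col4a2 (9.95, 8.65 and 8.89 CPM against 8.98, 8.94 and 22.0 CPM) were not called, with 95% intervals of the log2 fold change of -0.28 to 1.47 and -0.44 to 1.51. Migrated replicate 3 was the highest library for both. Col5a1 read 2.40, 1.99 and 6.18 CPM against 4.00, 3.65 and 4.52 CPM, with overlap (adjusted p = 0.786).

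**Figure D4:**
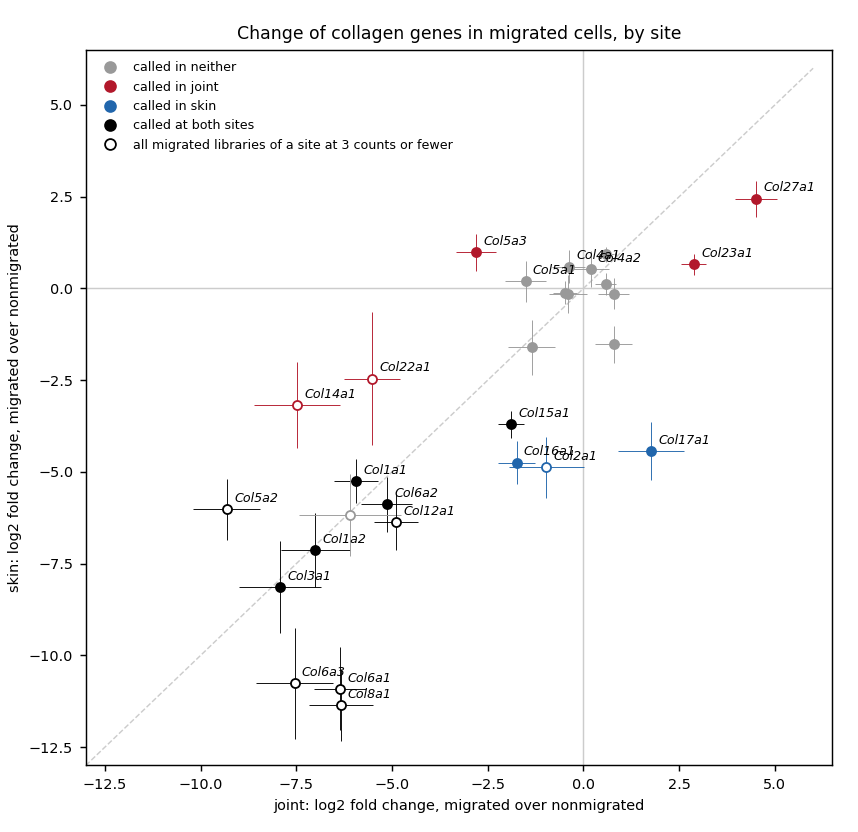
Log2 fold change of migrated over nonmigrated cells in the joint (x axis) and in skin (y axis) for each tested collagen gene, with standard errors as bars and the line of equal change dashed; open points mark genes with 3 counts or fewer in every migrated library of a site, whose fitted value is not a bound. The 10 genes called at both sites lie in the lower left, Col27a1 is the farthest to the upper right, and Col17a1 and Col5a3 lie off the line.

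Most fibroblast markers moved with these changes, but not their sum. The fibroblast list of 10 genes had a summed level of 109.3 to 234.8 CPM in joint nonmigrated and 162.8 to 276.5 CPM in joint migrated libraries, but Dpp4, which T cells also express, gave 157.4 to 263.8 CPM of the latter. In skin the list summed to 81.9 to 169.6 CPM in nonmigrated and 243.4 to 321.1 CPM in migrated libraries, of which Dpp4 gave 237.5 to 311.2 CPM. Without Dpp4, left out after its values were seen, the other 9 genes summed to 86.2, 117.9 and 190.5 CPM in joint nonmigrated libraries and 5.38, 8.92 and 12.7 CPM in joint migrated libraries, and to 42.6, 41.5 and 128.1 CPM against 5.96, 5.54 and 9.88 CPM in skin. The proteoglycan gene Dcn, a defining fibroblast marker, read 24.4, 27.1 and 52.5 CPM in joint nonmigrated and 18.8, 20.2 and 62.4 CPM in skin nonmigrated cells, and 0.279 CPM or less in every migrated library. Replicate 3 was highest for Dcn at both sites, as it was for Col1a1, Col1a2 and Col3a1. This order was not particular to fibroblast markers. The mast cell list summed to 138.7, 158.2 and 311.0 CPM in joint and 47.4, 53.4 and 274.9 CPM in skin nonmigrated libraries. The chondrocyte, osteoblast, lymph node stroma and B cell lists were also highest in nonmigrated replicate 3 at both sites, and the remaining lists were not. In migrated cells 2 of the 10 fibroblast markers were at the floor in the joint (Lum and Twist2) and 4 in skin (Pdgfra, Lum, Prrx1 and Twist2). The part of these cells in the collagen changes was not tested.

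Other marker lists differed between groups in their own ways, and only the keratinocyte list is set beside a single collagen gene here. The 5 keratinocyte markers summed to 26.7 to 310.3 CPM in skin nonmigrated cells and to 2.29 CPM or less in every other library. Krt5 read 72.4, 149.2 and 12.3 CPM in skin nonmigrated replicates 1 to 3, the same order as Col17a1. The 7 endothelial markers summed to 36.2 to 38.8 CPM in joint nonmigrated, 11.8 to 14.6 CPM in joint migrated, 65.7 to 70.5 CPM in skin nonmigrated and 11.96 to 15.6 CPM in skin migrated cells, with Emcn and Tie1 at the floor in joint migrated and Tek in skin migrated cells. The 6 osteoblast markers summed to 0.409 to 0.624 CPM in skin nonmigrated and 2.00 to 4.43 CPM in skin migrated cells, and to 1.203 to 3.34 and 2.19 to 3.88 CPM in the joint, with 3 to 5 of the 6 at the floor in each group. All 7 chondrocyte markers were above the floor in skin nonmigrated cells, with a sum of 5.82 to 11.9 CPM. In joint nonmigrated cells 3 were above it, with a sum of 4.79 to 12.4 CPM. In migrated cells 3 were above it at each site, with sums of 1.13 to 1.69 CPM in the joint and 1.70 to 3.03 CPM in skin. Macrophage markers summed to 5250 to 7771 CPM in joint nonmigrated and 33.6 to 93.8 CPM in joint migrated cells, and to 1354 to 5766 CPM and 67.8 to 139.6 CPM in skin. The part of any of these cells in the collagen changes was not tested.

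The next comparison set cells held in the joint against cells held in skin. Of the 29 tested members, 2 were lower in joint nonmigrated than in skin nonmigrated cells and 0 were higher, where 1.9% of all genes tested were called lower and 1.14% higher. Col17a1 read 0.383, 0.0332 and 0.511 CPM in joint nonmigrated libraries against the 29.4, 59.7 and 4.83 CPM of skin (log2 fold change -6.62, SE 0.906, adjusted p = 0.000522). Col23a1 read 0.274, 0.299 and 0.481 CPM against 1.68, 2.51 and 1.72 CPM (log2 fold change -2.48, SE 0.333, adjusted p = 0.000478). Neither gene overlapped between sites. Both calls were lost without any joint nonmigrated library and without skin nonmigrated replicate 1 or 2. The number of called members went from 2 to between 0 and 6 when a single library was left out, and to 5 without replicate 3 of both groups.

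Several members differed between sites without passing the threshold. Col8a1 was 0.684 to 1.23 CPM in the joint and 6.06 to 18.6 CPM in skin (log2 fold change -3.57, adjusted p = 0.00102), and Col27a1 was 2.82 to 8.48 CPM and 13.04 to 39.8 CPM (log2 fold change -2.57, adjusted p = 0.00399). Col14a1 went the other way, with 6.95, 7.61 and 6.85 CPM in the joint and 4, 1 and 44 counts in skin, so that skin replicate 3 alone was well above the floor (log2 fold change 3.01, adjusted p = 0.0218). Col22a1 was at or under the floor in all skin nonmigrated libraries and at least 4.76-fold higher in the joint (adjusted p = 0.00283). At an adjusted p under 0.05, 9 members were lower and 4 higher in the joint, beside 8.86% and 5.45% of all genes.

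Between joint migrated and skin migrated cells 0 of the 29 members were called, as were 0% of all genes tested. By edgeR 3 of the 29 had an unadjusted p under 0.05 (Col5a3, Col6a1 and Col16a1), and DESeq2 called 0. Col27a1 read 58.8, 143.2 and 145.3 CPM against 136.6, 171.9 and 186.0 CPM, and the ranges overlapped. Its log2 fold change was -0.51, with a 95% interval of -1.41 to 0.40, so that a difference of that size could not be resolved.

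Whether migration changed a gene by a different amount at each site was tested by the interaction. By edgeR 0 of 29 members were called, beside 0.119% of all genes tested in either direction, while 10 had an unadjusted p under 0.05 and DESeq2 called 3. At an adjusted p under 0.05, 5 members passed beside 6.13% of all genes in either direction, namely Col5a3, Col15a1, Col16a1, Col17a1 and Col23a1. The interaction for Col27a1 was 2.07 on the log2 scale (adjusted p = 0.0836), which does not show that its rise differed between joint and skin.

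Migrated cells were then compared with the steady-state nodes. The letters KG of the joint steady-state titles could stand for another sort gate than Kaede red, and a gate and inflammation cannot be told apart in the joint comparison. In skin, every migrated library (19239531 to 22378238 counts) was smaller than every steady-state library (28577566 to 40055171 counts). Reads that matched no gene were 0.115 to 0.135% in skin migrated and 0.227 to 0.441% in skin steady-state libraries, and the column headers differ in format. The skin steady state is titled naive and not PBS, so other steps of the model may differ too. Depth, these differences and inflammation therefore cannot be told apart in the skin comparison. Relative to the joint-draining node, 7 of 20 tested members were higher and 2 lower in joint migrated cells, where 12.4% of all 17107 genes tested were called higher and 3.5% lower. Relative to the skin-draining node, 6 were higher and 3 lower in skin migrated cells, where 16.6% of all genes were called higher and 8.51% lower. The median log2 fold change over the tested members was 0.95 in the joint and 1.76 in skin (0.99 with floor genes at their bound), against -0.02 and 0.00 over all genes. Col4a1, Col4a2, Col5a1, Col18a1 and Col27a1 were called higher at both sites, and Col11a2 and Col23a1 lower at both. The migrated libraries in these comparisons are the same as those set against nonmigrated cells.

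Col27a1 read 5.03, 6.45 and 4.13 CPM in the joint-draining node and 6.64, 5.30 and 5.16 CPM in the skin-draining node at steady state. The steady-state libraries were all far below the migrated ones, with log2 fold changes of 4.51 (SE 0.313, adjusted p = 1.09e-07) in the joint and 4.88 (SE 0.318, adjusted p = 2.85e-08) in skin, or 22.8-fold and 29.5-fold. Joint nonmigrated cells, at 2.82 to 8.48 CPM, spanned the level of both steady-state nodes.

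Col4a1 and Col4a2, which did not separate migrated from nonmigrated cells, separated migrated cells from the steady-state node. Col4a1 read 0.156, 0.245 and 0.0444 CPM in the joint-draining node (log2 fold change 6.07, SE 0.595, adjusted p = 2.2e-06) and 0.0897, 0.0926 and 0.214 CPM in the skin-draining node (log2 fold change 6.72, SE 0.618, adjusted p = 6.97e-07). Col4a2 read 0.0667, 0.147 and 0 CPM (log2 fold change 7.16, SE 0.812, adjusted p = 8.41e-06) and 0, 0.0232 and 0.153 CPM (log2 fold change 7.98, SE 0.861, adjusted p = 3.05e-06). All migrated libraries, at 3.59 CPM or more, were above all steady-state libraries for both chains. The 4 tested basement membrane genes split, since Col4a4 and Col4a5 had negative values at both sites and were not called.

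Col5a1 was at 0.0890, 0.147 and 0.266 CPM in the joint-draining node (log2 fold change 4.82, SE 0.561, adjusted p = 1.08e-05) and had 1, 3 and 0 counts in the skin-draining node, against which skin migrated cells were at least 44.3-fold higher (adjusted p = 2.38e-06). Col18a1 stood at 0.289, 0.614 and 0.466 CPM and at 0.426, 0.394 and 0.367 CPM in the steady-state nodes, and was higher in migrated cells by 2.61 (SE 0.349, adjusted p = 3.65e-05) and 3.01 (SE 0.364, adjusted p = 9.07e-06) on the log2 scale. Col5a3 was called in skin alone, from 0.875, 0.370 and 0.947 CPM to 3.72, 5.79 and 6.47 CPM (log2 fold change 2.90, SE 0.444, adjusted p = 7.44e-05). In the joint it read 2.34, 1.18 and 1.13 CPM at steady state and 0.883, 1.33 and 2.29 CPM in migrated cells, which overlapped. The type V chains did not share a pattern in these comparisons. Col16a1 and Col17a1 were called in the joint alone (adjusted p = 0.000388 and 0.000841), and each lost its call without any single joint node library, with log2 fold changes of 2.23 to 2.65 and 2.97 to 4.46.

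Of the 5 members that led the steady-state nodes, Col11a2 and Col23a1 were lower in migrated cells at both sites and Col20a1 in skin, while Col7a1 (log2 fold change -0.60 in the joint and -0.28 in skin) and Col9a3 (-0.80 and -0.99) were not called. B cell markers, a list of 3 genes, moved with them, at 2456 to 2804 CPM in the joint-draining and 1566 to 2089 CPM in the skin-draining steady-state node against 405.9 to 547.9 CPM in joint migrated and 65.1 to 121.0 CPM in skin migrated cells. Markers of lymph node stroma, a list of 5 genes, summed to 404.7 to 507.7 and 280.8 to 301.2 CPM in these nodes against 60.4 to 78.3 and 7.59 to 27.6 CPM. The sum rested on few genes, with Ccl19 and Madcam1 at the floor in both steady-state nodes and Ccl21a in the joint-draining node. Only Cr2 and Enpp2 of the list were above the floor in the joint-draining node. Cr2 encodes CD21, which the paper names among B cell signaling genes, so the list is not one of stroma alone. Of the 3 genes tested, 1 was called lower at each site. Their median log2 fold change was 1.61 in the joint and 1.46 in skin, so the sum did not stand for the list. The part of these cells in the collagen values was not tested. Col11a2 (ENSMUSG00000024330, chr17:34039437-34066685, plus strand) read 22.3, 20.98 and 20.8 CPM in the joint-draining node against 9.36, 10.6 and 8.42 CPM in joint migrated cells (log2 fold change -1.14, SE 0.118, adjusted p = 3.59e-06). In skin it read 25.4, 23.8 and 24.4 CPM against 12.6, 12.9 and 10.3 CPM (log2 fold change -1.01, SE 0.120, adjusted p = 7.56e-06), where it lost its call without skin migrated replicate 3 as the fold passed under the limit. Col23a1 read 6.87, 4.59 and 5.26 CPM against 2.75, 2.90 and 2.19 CPM in the joint (log2 fold change -1.06, SE 0.210, adjusted p = 0.000945). In skin it read 8.34, 9.98 and 8.31 CPM against 2.47, 3.00 and 3.86 CPM (log2 fold change -1.48, SE 0.216, adjusted p = 4.89e-05). No library of Col11a2 or Col23a1 overlapped between the groups. The joint call of Col23a1 was lost without any single joint node library, with values of -1.18 to -0.88. Col20a1, a FACIT, was called lower in skin, from 7.22, 5.70 and 6.14 CPM to 2.51, 3.00 and 2.70 CPM (log2 fold change -1.18, SE 0.226, adjusted p = 0.000463), a call lost without any migrated library or without steady-state replicate 1 or 3. In nonmigrated cells Col11a2 was lower still, at 4.62 to 7.11 CPM in the joint and 5.46 to 6.66 CPM in skin.

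Between the joint-draining and skin-draining steady-state nodes 0 of 20 members were called by edgeR, beside 1.44% of all genes tested in either direction. DESeq2 also called 0, and 4 members had an unadjusted p under 0.05 (Col5a1, Col5a3, Col15a1 and Col23a1).

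**Figure D5:**
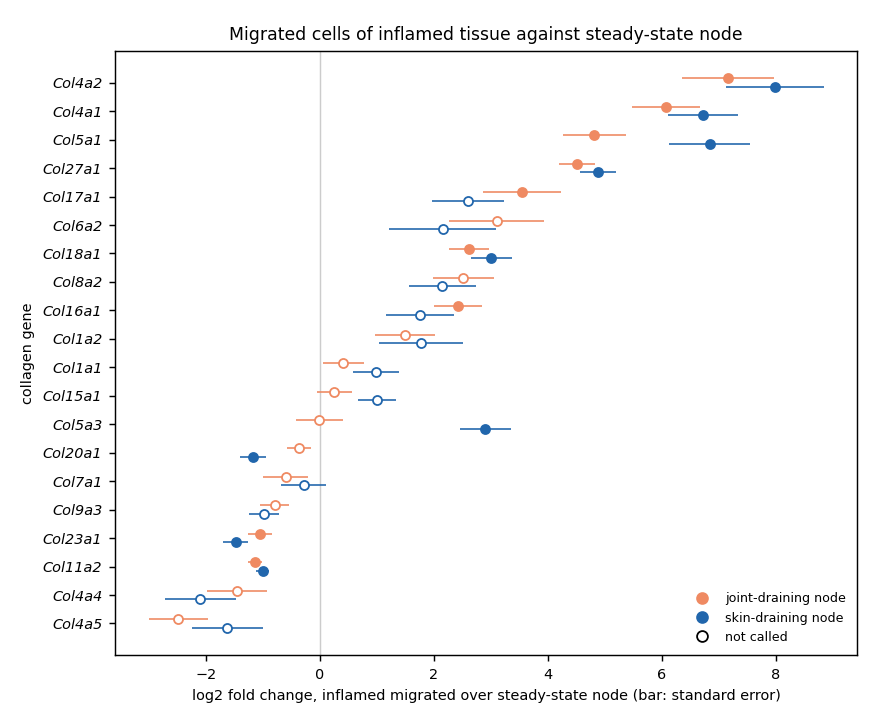
Log2 fold change (x axis, with standard errors as bars) of migrated cells from inflamed tissue over the steady-state node for the 20 tested collagen genes (rows), in the joint-draining and the skin-draining node; filled points are called, open points are not. Col4a2, Col4a1, Col5a1 and Col27a1 are at 4.51 or more in both nodes, and Col11a2 and Col23a1 are near -1.

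Genes that act on collagen chains were followed as a list of 35 names, of which 31 were tested in the inflamed libraries. In joint migrated cells 1 rose and 12 fell, with a median log2 fold change of -1.54, and in skin migrated cells 2 rose and 8 fell, with a median of -1.58, against medians of 0.02 and 0.01 over all genes. Over all genes tested 8.8% rose and 12.6% fell in the joint and 8.49% and 12.4% in skin, so that the rises of the list, 1 and 2 of 31, were no larger a share than that. P4ha1, the catalytic chain of collagen prolyl 4-hydroxylase, read 143.6, 179.0 and 144.1 CPM in joint nonmigrated cells and 35.9, 35.8 and 28.1 CPM in migrated cells (log2 fold change -2.22, SE 0.141, adjusted p = 4.71e-07). In skin it read 294.8, 334.6 and 257.3 CPM against 46.1, 44.3 and 45.2 CPM (log2 fold change -2.71, SE 0.144, adjusted p = 1.02e-07). Unlike the fibril chains, it was not higher in nonmigrated replicate 3. Sparc, a collagen-binding matricellular protein, fell by 7.38 on the log2 scale in the joint (adjusted p = 2.69e-06) and by 5.75 in skin (adjusted p = 1.14e-05).

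Bmp1, the protease that trims the C-terminal propeptide of fibrillar procollagens, rose in migrated cells with Col27a1. It read 2.02, 2.82 and 4.69 CPM in joint nonmigrated cells and 9.30, 25.5 and 27.8 CPM in migrated cells (log2 fold change 2.72, SE 0.407, adjusted p = 0.000169). In skin it read 2.22, 3.10 and 2.39 CPM against 15.97, 18.1 and 21.9 CPM (log2 fold change 2.86, SE 0.423, adjusted p = 0.000155). Joint migrated replicate 1 was the lowest migrated library for Bmp1, as it was for Col27a1, Col4a1 and Col4a2. Relative to the steady-state nodes, 6 of 27 tested genes of the list were higher and 0 lower in the joint, and 7 were higher and 0 lower in skin, or 22.2% and 25.9% called, beside 12.4% and 16.6% of all genes called higher. Bmp1 rose there by 6.52 and 5.78 on the log2 scale (adjusted p = 1.26e-07 and 1.18e-07), and Loxl3, a lysyl oxidase that cross-links collagen, by 5.20 and 4.72 (adjusted p = 1.28e-07 at both sites).

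Collagen receptors and uptake receptors were a list of 13 genes, of which 12 were tested in the inflamed libraries. In joint migrated cells 2 rose and 4 fell, and in skin migrated cells 0 rose and 4 fell by edgeR, beside the same shares of all genes, 8.8% higher and 12.6% lower in the joint and 8.49% and 12.4% in skin. The median log2 fold change of the list with floor genes at their bound was -1.64 in the joint and -1.04 in skin. Itga2, the alpha chain of the collagen-binding integrin alpha-2 beta-1, read 2.33, 3.59 and 4.21 CPM in joint nonmigrated cells and 23.8, 22.8 and 16.1 CPM in migrated cells (log2 fold change 2.64, SE 0.321, adjusted p = 3.6e-05). Ddr1, a collagen-activated receptor tyrosine kinase, rose in the joint from 6.24, 8.44 and 7.91 CPM to 27.0, 26.1 and 24.5 CPM (log2 fold change 1.78, SE 0.262, adjusted p = 0.000147). Lair1, an inhibitory collagen receptor of leukocytes, read 422.5, 312.2 and 211.7 CPM in joint nonmigrated cells and 17.4, 18.6 and 19.1 CPM in migrated cells (log2 fold change -4.10, SE 0.343, adjusted p = 2.67e-06), and Itga1, Adgrg1 and Clec4d also fell at both sites. Relative to the steady-state nodes 5 of 9 tested genes rose and 1 fell in joint migrated cells, and 6 rose and 0 fell in skin migrated cells, beside 12.4% and 16.6% of all genes called higher and 3.5% and 8.51% lower. The median log2 fold change of the list was 1.94 in the joint and 1.89 in skin. Mrc2, an endocytic receptor for collagen fragments, rose from 0.0667, 0.147 and 0.111 CPM to 4.02, 5.56 and 5.14 CPM in the joint (log2 fold change 5.50, SE 0.299, adjusted p = 1.36e-08) and by 5.10 in skin (adjusted p = 8.24e-09).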

How the data were processed

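The authors aligned paired reads of 100 bp with TopHat2 to mm10 and counted them per Ensembl gene with HTSeq under default settings, which count only reads on the strand of the gene, and the deposited files hold these raw counts per library. The 5 HTSeq summary rows, 11.3 to 15.1% of reads, were left out. Whether the library kit marks strand was not given in the sources used here. Genes were named through GENCODE M21 (GRCm38), which matched 49326 of 49585 rows.

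Differences in counts came from the quasi-likelihood F test of edgeR 4.0.16 in R 4.3.3, after TMM scaling and filterByExpr with minimum count 10, with group as the only term, in a fit of the 12 inflamed and a fit of the 12 lymph node libraries. Levels are TMM-scaled CPM over 18 libraries. DESeq2 1.42.0 and other settings were tried as alternatives, and the scripts were tested on simulated data. Values are given for the 10 members with the highest group mean, chains sharing a trimer with them, up to 3 called members per direction and comparison, and members called against the majority, and others appear as examples. Classes, lists and markers were chosen with earlier results of these data known. Same-group libraries differed by 14.7 to 117.1 times the sampling noise (chi-square per degree of freedom), so that none was a repeat of another. Floors cover counting error only, while 95% intervals of log2 fold changes, made from the edgeR standard errors, include the spread between libraries.

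Same-numbered migrated and nonmigrated libraries correlated in their deviations from the group mean at 0.021, 0.254 and 0.195 in the joint and 0.173, 0.073 and 0.148 in skin. All were positive, some only weakly, and these values do not settle whether the numbers are pairs. The labels give no pairs, so the main fits left the numbers unpaired. Calls with a replicate block are given below.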

Additional observations from a re-analysis of the deposited data

Results flagged for a closer look

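The change from nonmigrated to migrated cells differed between joint and skin for 5 collagen genes at an adjusted p under 0.05 (edgeR interaction term), and 0 reached the threshold of 0.001. Positive values mean that the log2 fold change was higher in the joint. Col17a1, the hemidesmosome collagen, had an interaction of 6.20 (SE 1.15, adjusted p = 0.00928), and its log2 fold changes were 1.76 in the joint and -4.44 in skin. Col5a3, a type V chain, had an interaction of -3.78 (SE 0.717, adjusted p = 0.0102), with -2.80 in the joint and 0.98 in skin. Col23a1, a transmembrane collagen, had an interaction of 2.23 (SE 0.436, adjusted p = 0.0119), with 2.88 and 0.65. Col16a1, a FACIT, had an interaction of 3.00 (SE 0.765, adjusted p = 0.0363), with -1.75 and -4.75. Col15a1, a multiplexin, had an interaction of 1.83 (SE 0.485, adjusted p = 0.0412), with -1.88 and -3.71. The keratinocyte markers, which summed to 26.7 to 310.3 CPM in skin nonmigrated cells alone, moved with Col17a1, and their part in its interaction was not tested. Over the 19 other settings run, adjusted p was at or above 0.05 in 11 for Col15a1 and in 9 for Col16a1, most of them with a single library left out, and at or above 0.05 in 0 for Col5a3, Col17a1 and Col23a1.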

How the results depend on the processing

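Of 48 calls of a gene in a comparison, 28 held in every setting run, 20 were lost in at least 1, and 0 changed direction. Between joint and skin nonmigrated cells (2 called), the count was 13 at an adjusted p under 0.05, 8 in DESeq2, 5 without a filter on low counts, 7 with all 18 libraries in 1 fit, 0 with only the groups compared, 0 to 6 when a single library was left out, and 5 without replicate 3 of both groups, a setting chosen after seeing the data. For the interaction (0 called), these were 5 at 0.05, 3 in DESeq2, 2 without a filter, 0 to 1 with a library left out and 1 without both replicates 3. The 15 joint calls went to 9 to 13 with a library left out, and the 13 skin calls to 9 to 12, or 6 with only the groups compared. The 9 calls against each steady-state node became 14 in the joint and 16 in skin at 0.05. With the replicate block the counts of calls were 13 in the joint, 11 in skin, 1 between nonmigrated groups, 6 against the joint and 9 against the skin steady-state node. The calls lost there were Col15a1 and Col22a1 in the joint, Col2a1 and Col17a1 in skin, Col17a1 and Col23a1 between nonmigrated groups, where Col8a1 was called instead, and Col16a1, Col17a1 and Col23a1 against the joint steady-state node. Each skin library, and each joint library but nonmigrated replicate 1, correlated best with its own number, a hint from the data and not the design.

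Depth limited detection. The mean number of members above the floor was 32.33, 26.67, 21.67, 31.33, 18.67 and 19.67 in joint nonmigrated, joint migrated, joint steady-state, skin nonmigrated, skin migrated and skin steady-state libraries. Above 10 counts it was 26.33, 18, 12.67, 27.67, 15.33 and 12.33 in the same order. Thinned to the smallest library it was 29.67, 20.33, 15.67, 31.33, 18 and 15.33 in the same order, so that the order of joint and skin nonmigrated libraries turned. Scaled by library totals, the mean summed level was 52.43 CPM in place of 48.45 in the joint and 64.6 in place of 57.17 in the skin steady-state node.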
